A study of Rattus norvegicus with 18 samples.

Results

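Chronic immobilization stress, in which an animal is repeatedly held still, was compared with handling alone in 2 brain regions of the rat, and the quantity described here is the difference between the regions: the stress minus handled change in the amygdala minus the same change in the cortex. It answers whether stress changed a transcript by a different amount in the amygdala than in the cortex. The 4 groups were amygdala from stressed rats, amygdala from handled rats, cortex from stressed rats and cortex from handled rats, with 3 Affymetrix arrays in each, so that 12 of the 18 arrays of the series entered the difference. The other 6 arrays, from hippocampus of stressed and of handled rats, added only to the estimate of the spread and are used once as another region. Arrays were placed by region and treatment in their titles. All 31042 probe sets that are not control probe sets were tested, of 31099 on the array, and a probe set is called here when its limma p-value, adjusted over all 31042 by the Benjamini-Hochberg method, lies below 0.05. The labels state no strain, sex, age, cortical area or duration of the stress. They also leave unsaid whether arrays of the same group stand for different rats, for pools or for repeats of 1 RNA, so every p-value here speaks to array-to-array spread alone, and that spread may be technical.

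The amygdala and the cortex both hold glutamatergic projection neurons and GABAergic interneurons, and both receive the adrenal hormone corticosterone, which acts through the glucocorticoid and mineralocorticoid receptors. Repeated restraint is known from work in rodents for changing dendrites and spines in opposite ways in parts of the 2 regions. The cortex is also covered by the leptomeninges, thin membranes of fibroblasts that secrete collagens, insulin-like growth factor 2 and prostaglandin D synthase, whereas the amygdala lies deep in the temporal lobe.

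The stress change differed between amygdala and cortex for 15 probe sets, which is 0.0483% of those tested, against 2505 at an unadjusted p below 0.05. In 6 of them the amygdala change lay above the cortex change (0.0193%), and in 9 it lay below (0.029%). All 6 of the higher ones had fallen in the stressed cortex with no call in the amygdala: Igf2, Col1a2, Ptgds, Igfbp2, Cyp26b1 and the unnamed probe set 1389120_at. Of the 9 lower ones, 8 had fallen in the stressed amygdala with no call in the cortex: Luzp2, Pnma8b, Ahi1, Gria1, the unnamed probe set 1397555_at, Lsamp, Pals2 and Eid1. The remaining probe set, of Ywhab, fell in the amygdala and rose in the cortex. For the stress change within a region, 356 probe sets were called in amygdala (1.15%), of which 58 were higher (0.187%) and 298 lower (0.96%). In cortex 48 were called (0.155%), of which 12 were higher (0.0387%) and 36 lower (0.116%). These counts rest on a spread shared by all 18 arrays. With each region fitted on its own 6 arrays, 83 were called in amygdala and 220 in cortex, so the counts do not rank the regions. The 3 stressed arrays did not overlap the 3 handled ones for 14.3% of all probe sets in amygdala and for 18.8% in cortex, the background for every such statement below. Over 21 other ways of scaling, filtering and fitting, array omissions included, Igf2, Ptgds, Ywhab and Ahi1 were called in all 21, Lsamp in 20, Cyp26b1 in 18, Gria1 in 16, and Igfbp2, Pnma8b and 1397555_at in 13. Luzp2 was called in 9, Pals2 in 7 and Eid1 in 5, while Col1a2 was called in 11 and 1389120_at in 6 of the 20 settings that kept them. No sign turned.

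**Figure D1:**
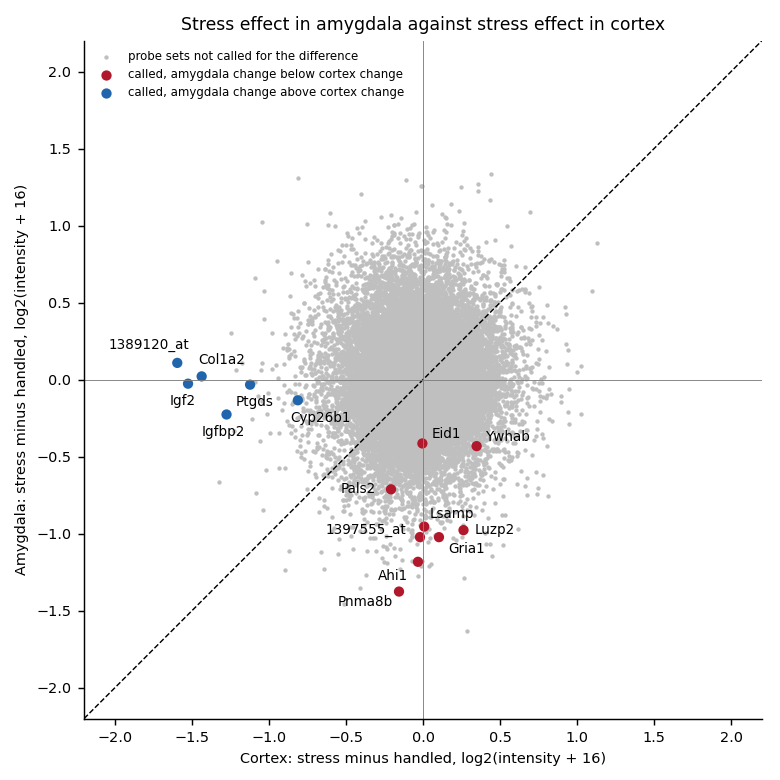
Stress minus handled change in amygdala (vertical axis) against the same change in cortex (horizontal axis), both as differences of log2(intensity + 16), 1 point per probe set, with the 15 called probe sets in colour and equal change on the dashed line. The 6 blue probe sets lie to the left, at cortex changes of -0.81 to -1.60 with amygdala changes of -0.23 to 0.11, and the red ones lie low, at amygdala changes of -0.41 to -1.38, with Ywhab alone to the right at 0.35 in cortex.

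The arrays had been scaled to a common level, with median intensities of 49.1 to 56.4 over the 18 arrays. Arrays of the same group differed by a median coefficient of variation of 12.7% in stressed and 10.1% in handled amygdala, and of 8.09% in stressed and 8.64% in handled cortex, so that the amygdala side of the difference carries the larger spread. One label field names the amygdala for all arrays, so region was read against markers in the handled arrays: 7 of 18 measured amygdala markers were called higher in amygdala than in cortex and 4 lower, while 8 of 22 neocortex markers were called lower in amygdala and 4 higher, against 4.26% and 3.57% of all probe sets called higher and lower. The titles were thus followed in part only. The hexokinase control, whose 3′ probe set exceeds its 5′ probe set where RNA is less intact, had a 3′ minus 5′ log2 difference of 1.23 ± 0.07 in stressed and 0.83 ± 0.08 in handled amygdala, and of 1.28 ± 0.12 in stressed and 1.11 ± 0.09 in handled cortex (SD, n = 3 each). The same difference for GAPDH was 0.45 in stressed and 0.45 in handled amygdala, and 0.24 in stressed and 0.29 in handled cortex. For beta-actin it was 2.15 ± 0.24 in stressed and 2.07 ± 0.08 in handled amygdala. In cortex the beta-actin difference was 1.61 ± 0.04 on stressed and 1.66 ± 0.05 on handled arrays.

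Among the transcripts lower in the stressed cortex, Ptgds, which encodes the prostaglandin D synthase that the leptomeninges and choroid plexus secrete, gave the smallest adjusted p. Its intensity was 666, 734 and 678 in stressed amygdala against 683, 734 and 709 in handled amygdala. In cortex it was 1448, 1370 and 1367 on stressed arrays against 3178, 2971 and 3019 on handled arrays. The amygdala groups overlapped, and every stressed cortex array lay below every handled one. The log2 change was -0.03 ± 0.06 (SE) in amygdala and -1.12 ± 0.06 in cortex, a difference of 1.09 ± 0.08 (95% interval 0.92 to 1.26, limma with Benjamini-Hochberg adjusted p = 2.45e-07).

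Igf2, insulin-like growth factor 2, a fetal growth factor that in adult rodent brain is made mainly by meninges and choroid plexus, read 136, 156 and 153 in stressed against 161, 152 and 141 in handled amygdala. In cortex it read 110, 175 and 140 on stressed arrays and 419, 414 and 465 on handled ones. The stressed cortex arrays therefore came down to the level of the amygdala, and the handled cortex arrays stood apart from all others. The difference between the regions was 1.50 ± 0.17 (interval 1.14 to 1.86, limma Benjamini-Hochberg adjusted p = 2.56e-04). The 3 other Igf2 probe sets lay near the bottom of the scale, with means of 2.33 to 7.48 over the 18 arrays. Their differences of -0.26 to 0.16 were not called (limma adjusted p = 0.911 to 0.982). Igfbp2, which binds insulin-like growth factors, was 76.6, 79.2 and 82.7 in stressed against 99.9, 92.9 and 94.3 in handled amygdala, and 164, 116 and 138 in stressed against 382, 355 and 333 in handled cortex. Here the amygdala groups did not overlap either, though the amygdala change of -0.23 was not called (adjusted p = 0.523, limma), and the difference was 1.05 ± 0.17 (adjusted p = 0.0181).

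Col1a2, the alpha 2 chain of the fibrillar collagen type I, was dim in amygdala, at 42.8, 27.4 and 37.2 on stressed and 38.9, 29.5 and 36.1 on handled arrays. In cortex it was 60.5, 63.0 and 66.6 on stressed arrays against 209, 198 and 190 on handled ones. Again only the cortex groups were apart. The difference was 1.46 ± 0.24 (interval 0.96 to 1.95, limma adjusted p = 0.0175). A second Col1a2 probe set gave 0.67 ± 0.36 and was not called (adjusted p = 0.672, limma). It fell in cortex by 1.33 (limma adjusted p = 0.0273) and had an uncalled amygdala change of -0.66.

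Cyp26b1 differs from these 4 in being far brighter in amygdala than in cortex. It encodes a cytochrome P450 that degrades retinoic acid. Its intensity was 1371, 1359 and 1302 in stressed against 1398, 1436 and 1601 in handled amygdala, and 337, 292 and 298 in stressed against 529, 530 and 604 in handled cortex. The handled arrays were higher than the stressed ones in both regions without overlap, but the log2 change was -0.13 ± 0.07 in amygdala and -0.81 ± 0.07 in cortex, a difference of 0.68 ± 0.10 (limma adjusted p = 0.0109). A second, dimmer probe set of the gene gave a difference of 0.05. The unnamed probe set 1389120_at read 70.9, 34.5 and 73.0 in stressed and 42.8, 69.1 and 46.3 in handled amygdala, and 3.44, 2.50 and 2.70 in stressed and 43.0, 38.9 and 41.2 in handled cortex. Its difference of 1.70 ± 0.30 (limma adjusted p = 0.0339) depends on the added offset, since the stressed cortex values lie near the bottom of the scale, and it ranged from 0.72 to 3.57 with offsets of 64 and 1.

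The 250 bases before the annotated start of transcription are shown for Ptgds and Col1a2, the brightest of this group and its fibrillar collagen. These windows set transcripts that fell together in cortex side by side. They come from RefSeq (GRCr8), chr3:28682979-28683228 on the minus strand and chr4:33518307-33518556 on the plus strand, written 5′ to 3′. Capitals mark a match on either strand to the TATA box, searched as TATAA, to the CCAAT box, searched by that name, or to the GC box, searched as GGGCGG.
Ptgds: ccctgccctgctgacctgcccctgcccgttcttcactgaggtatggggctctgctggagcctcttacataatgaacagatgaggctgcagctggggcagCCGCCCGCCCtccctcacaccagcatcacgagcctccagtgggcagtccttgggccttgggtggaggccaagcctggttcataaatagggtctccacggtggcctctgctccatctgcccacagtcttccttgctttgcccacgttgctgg
Col1a2: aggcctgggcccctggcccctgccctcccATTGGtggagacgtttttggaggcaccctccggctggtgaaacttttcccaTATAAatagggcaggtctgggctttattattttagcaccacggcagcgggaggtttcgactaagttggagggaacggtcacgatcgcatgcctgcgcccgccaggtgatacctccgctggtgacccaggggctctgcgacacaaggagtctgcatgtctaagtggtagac
The Col1a2 window holds a TATA box and, on the other strand, a CCAAT box. The TATA box begins 170 bases before the annotated start. Where transcription starts in these tissues was not tested, so part of a window may itself be transcribed. The Ptgds window holds 2 overlapping matches to the GC box on the other strand and neither other motif. Promoters were in the table for 11 of the 13 named genes. Of these 11, 2 hold a TATA box, 4 a CCAAT box and 8 a GC box, against 24%, 34% and 30.5% of all 33469 rat promoter windows of the same length. The glucocorticoid receptor half-site AGAACA was in none of the 11 windows, against 17.5% of all windows. The E-box CANNTG was in 8, against 65.5%. Several of these genes have more than 1 start site in the table, and a gene was counted where any of its windows held the motif. A match describes the letters in the window and nothing about binding.

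**Figure D2:**
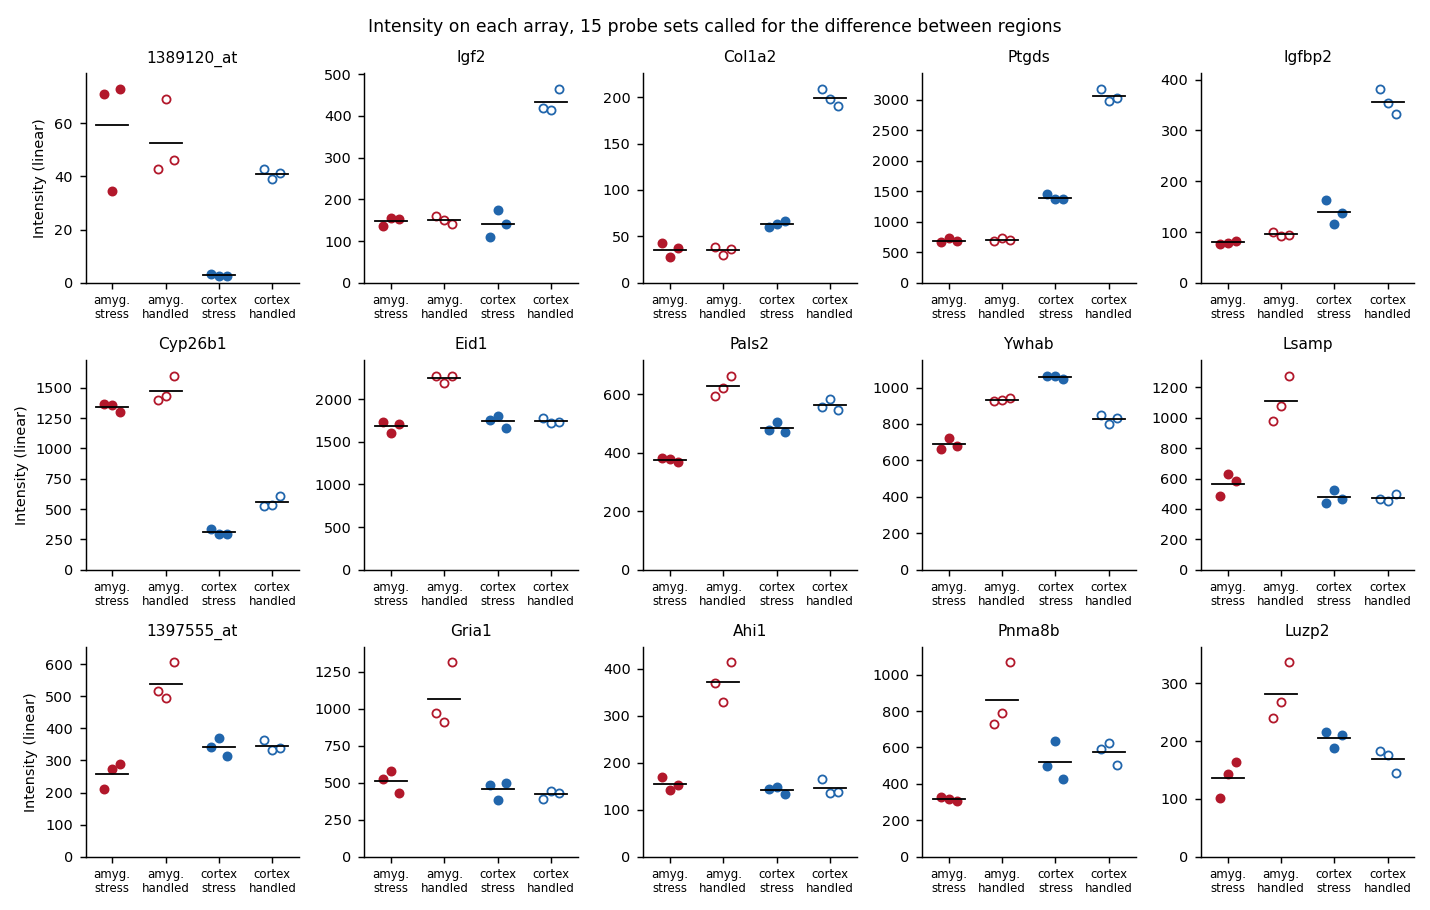
Linear intensity on each of the 12 arrays for the 15 called probe sets, ordered from the highest difference to the lowest, with amygdala in red, cortex in blue, stressed arrays filled, handled arrays open and group means as bars. In the Ptgds panel the handled cortex arrays, at 2971 to 3178, stand above the other 9, and in the Ahi1 panel the handled amygdala arrays, at 330 to 413, stand above the other 9.

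Meningeal fibroblast genes were lower in stressed cortex for 7 of 22 measured, and none was called in amygdala. Of 23 listed genes 22 were measured, and their median difference was 0.86, with 19 of 22 above 0, against a median of 0.04 and 8261 of 14217 above 0 over all named genes. Of the 22, 4 were called for the difference (Col1a2, Igf2, Igfbp2 and Ptgds) and 18 were not. In cortex 7 of the 22 fell, against 0.116% of all probe sets and 20 of 14217 named genes: these 4, the collagen gene Col3a1, the small proteoglycan gene Ogn and Gjb2, a connexin. In amygdala none of the 22 was called, and their median change was 0.05 against -0.82 in cortex. The fall of such genes in cortex was already known from earlier results of these arrays when the list was drawn up, so its direction is not independent evidence.

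The uncalled members of largest size were Slc22a6, an organic anion transporter, Col3a1 and the matrix protein gene Mgp. Col3a1, the chain of collagen type III, read 61.3, 46.0 and 36.5 in stressed against 34.6, 44.2 and 56.0 in handled amygdala, and 103, 89.3 and 93.8 in stressed against 246, 247 and 234 in handled cortex. Its difference of 1.28 ± 0.24 missed the threshold (limma adjusted p = 0.0549). Mgp differed by 1.28 ± 0.33 (limma adjusted p = 0.240) and Slc22a6 by 1.42 ± 0.50 (adjusted p = 0.444). The Mgp value rests partly on a stressed amygdala array at 231, against 120 and 95.7 on the other two. None of the list was at 0 throughout, its dimmest member being Postn with a mean of 4.60. The intensities of the list summed to 1673 to 1729 on stressed against 1626 to 1772 on handled amygdala arrays, and to 2669 to 2715 on stressed against 5884 to 6074 on handled cortex arrays. These sums hold the called genes, and Ptgds alone had a cortex mean of 1395 on stressed and 3056 on handled arrays. Fewer cells of a type and less RNA per cell cannot be told apart in bulk tissue, and how much meninges each cortex sample carried was not tested.

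Lists for other cells of the brain's surfaces and vessels had smaller medians. The endothelial and mural list had a median difference of 0.28 with 17 of 21 above 0 and no call, and the same was true of choroid plexus and ependyma genes (0.26, 11 of 13 above 0, no call). Myl9, a smooth muscle myosin light chain, had the largest endothelial and mural value, 1.01 ± 0.29 (limma adjusted p = 0.345). Hbb, beta globin of red cells, fell in both regions, by 0.41 in amygdala and by 0.69 in cortex, and its difference of 0.28 ± 0.11 was not called (limma adjusted p = 0.485). Only 3 of 8 listed blood genes were measured. Antigen presentation and interferon genes had a median of 0.19, with 21 of 30 above 0 and no call. In amygdala 2 of the 30 were called higher, against 0.187% of all probe sets. The list summed to 4034 to 4267 on stressed against 3563 to 3749 on handled amygdala arrays. In cortex the sums overlapped, at 3582 to 3626 on stressed and 3459 to 3685 on handled arrays, and 1 member was called, lower. That member was Cd74, the invariant chain of class II molecules. Cd74 fell in cortex by 1.23 (limma adjusted p = 0.00146) with an uncalled amygdala change of -0.33 and an uncalled difference of 0.90 ± 0.25.

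Retinoic acid, the vitamin A derivative that meninges make, forms a list of its own. Of 17 measured genes of its synthesis, binding, breakdown and receptors, Cyp26b1 was called and 16 were not, with a median difference of 0.32 and 13 above 0. Aldh1a2, which makes retinoic acid and is a meningeal gene, read 72.0, 49.3 and 57.8 in stressed against 29.8, 53.2 and 44.6 in handled amygdala, and 94.9, 77.9 and 107 in stressed against 186, 172 and 139 in handled cortex. The cortex groups did not overlap, and the difference of 1.12 ± 0.29 was not called (limma adjusted p = 0.245). In the growth hormone and insulin-like growth factor axis Igf2 and Igfbp2 were called of 19 measured, with a median of 0.14. Gh1, growth hormone itself, was the next of that list. Its readings were 196, 230 and 202 in stressed against 103, 99.1 and 73.6 in handled amygdala, and 40.8, 35 and 28.5 in stressed against 46.5, 29.7 and 53.8 in handled cortex. It rose in amygdala by 1.07 (limma adjusted p = 0.00236), while its difference of 1.28 ± 0.25 was not called (adjusted p = 0.0690).

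Ywhab, which encodes the beta form of the adaptor protein 14-3-3, was called with opposite signs in the 2 regions. Its probe set 1386999_at read 662, 722 and 678 in stressed against 926, 930 and 940 in handled amygdala, and 1061, 1065 and 1048 in stressed against 852, 801 and 832 in handled cortex. The groups were apart in both regions, in opposite order. The log2 change was -0.43 ± 0.06 in amygdala (limma adjusted p = 5.68e-04) and 0.35 ± 0.06 in cortex (adjusted p = 0.0108), a difference of -0.78 ± 0.09 (interval -0.96 to -0.60, adjusted p = 1.39e-04). The gene's other probe set, 1398800_at, is brighter, with a mean of 4124 over the 18 arrays, and gave a difference of 0.02 ± 0.07 (limma adjusted p = 0.973). The opposite changes were thus seen on only 1 of 2 probe sets, and which part of the transcript each reads is not given in the files.

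The transcripts that were lower in stressed amygdala include genes of neuronal contact and of synaptic transmission. Lsamp encodes the limbic system-associated membrane protein, an adhesion molecule of the immunoglobulin superfamily that is enriched in limbic areas. Its intensity was 486, 630 and 583 in stressed against 981, 1079 and 1277 in handled amygdala, and 440, 522 and 467 in stressed against 468, 450 and 500 in handled cortex. Only the handled amygdala arrays stood apart, and on the stressed arrays amygdala and cortex were at a like level. The log2 change was -0.95 ± 0.09 in amygdala and 0.01 ± 0.09 in cortex, a difference of -0.96 ± 0.13 (interval -1.24 to -0.68, limma adjusted p = 0.00362).

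Gria1, a subunit of AMPA-type glutamate receptors, showed the same layout. It read 526, 581 and 432 in stressed against 974, 908 and 1313 in handled amygdala, and 485, 382 and 498 in stressed against 390, 441 and 430 in handled cortex. The cortex groups overlapped. The difference was -1.13 ± 0.18 (limma adjusted p = 0.0131), made of -1.02 ± 0.13 in amygdala and an uncalled 0.10 ± 0.13 in cortex.

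Ahi1 encodes a protein of the primary cilium that is mutated in the human disorder Joubert syndrome. It read 170, 142 and 152 in stressed against 370, 330 and 413 in handled amygdala, and 144, 148 and 133 in stressed against 165, 135 and 137 in handled cortex. Its difference of -1.15 ± 0.16 (limma adjusted p = 0.00434) came from an amygdala change of -1.18 ± 0.12 with a cortex change of -0.03 ± 0.12. Its second probe set had a difference of -0.77 ± 0.25 that was not called (limma adjusted p = 0.413). Pnma8b, of the paraneoplastic Ma antigen family, had the largest amygdala change. It read 329, 317 and 308 in stressed against 727, 792 and 1068 in handled amygdala, and 496, 635 and 425 in stressed against 592, 624 and 506 in handled cortex. The stressed amygdala arrays were the lowest of all 12, and the difference was -1.22 ± 0.21 (limma adjusted p = 0.0240). The second probe set of Pnma8b gave an uncalled -0.70 ± 0.20 (limma adjusted p = 0.332).

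Of the 13 named genes called for the difference, Ahi1 and Pnma8b fell most in amygdala, and their promoter windows are given for comparison with those of the cortex group. They lie at chr1:17581781-17582030 and chr1:86750197-86750446, both on the plus strand (RefSeq, GRCr8), with the same motifs in capitals.
Ahi1: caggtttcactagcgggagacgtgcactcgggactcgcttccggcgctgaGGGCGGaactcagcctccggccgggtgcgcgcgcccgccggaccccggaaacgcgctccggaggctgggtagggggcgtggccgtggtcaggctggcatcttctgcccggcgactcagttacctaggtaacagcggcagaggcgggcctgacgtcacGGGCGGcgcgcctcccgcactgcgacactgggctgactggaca
Pnma8b: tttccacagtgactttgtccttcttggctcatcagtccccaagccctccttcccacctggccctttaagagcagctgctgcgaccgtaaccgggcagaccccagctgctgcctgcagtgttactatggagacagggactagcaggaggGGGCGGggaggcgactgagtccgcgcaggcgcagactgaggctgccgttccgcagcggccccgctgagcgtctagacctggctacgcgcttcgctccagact
Ahi1 holds the GC box at 2 places and Pnma8b at 1, and neither window holds a TATA or CCAAT box.

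The other 3 genes and the unnamed probe set of this direction follow. Luzp2, a leucine zipper protein, read 101, 143 and 164 in stressed against 239, 268 and 336 in handled amygdala, and 216, 188 and 210 in stressed against 183, 177 and 145 in handled cortex. The groups were apart in both regions, though the cortex change of 0.26 was not called, and the difference was -1.24 ± 0.22 (limma adjusted p = 0.0412). Its other probe set had the opposite sign, 0.42 ± 0.38 (limma adjusted p = 0.838). Pals2, a membrane-associated guanylate kinase that scaffolds cell junctions, read 381, 379 and 369 in stressed against 595, 622 and 663 in handled amygdala, and 478, 505 and 471 in stressed against 557, 583 and 547 in handled cortex. Stressed arrays were lower without overlap in both regions, by a larger amount in amygdala, with a difference of -0.50 ± 0.09 (limma adjusted p = 0.0412). The 4 other Pals2 probe sets were not called, with differences of -0.32 to 0.06 (limma adjusted p = 0.796 to 0.978). Eid1, an inhibitor of the acetyltransferase EP300, read 1727, 1599 and 1709 in stressed against 2274, 2184 and 2265 in handled amygdala, and 1752, 1801 and 1663 in stressed against 1777, 1722 and 1728 in handled cortex. It is the brightest of the group and has the smallest difference, -0.41 ± 0.08 (limma adjusted p = 0.0436). The unnamed 1397555_at read 212, 275 and 290 in stressed against 517, 495 and 606 in handled amygdala, and 341, 369 and 314 in stressed against 365, 332 and 340 in handled cortex, a difference of -1.002 ± 0.17 (limma adjusted p = 0.0181).

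Over the 8 called genes with further probe sets there were 13 of these, of which 8 had the sign of the called one. None of the 13 was called for the difference. Over all probe sets 54.3% had a difference above 0, so this count is not support for the calls. Lower transcripts in stressed amygdala coincide with the larger hexokinase 3′ minus 5′ difference on those arrays given above, and the part of RNA quality in these values was not tested. The GAPDH and beta-actin differences overlapped between stressed and handled amygdala arrays. The added dap control transcripts had a mean log2 intensity of 8.52 ± 0.09 on stressed and 9.03 ± 0.28 on handled amygdala arrays, and 8.57 ± 0.14 on stressed and 8.57 ± 0.30 on handled cortex arrays.

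Glutamate receptor and transporter genes leaned to the negative side, with a median difference of -0.12 and 8 of 28 above 0. Gria1 was called, and 27 members were not. In amygdala 5 of the 28 fell, against 0.96% of all probe sets and 116 of 14217 named genes: Gria1, the NMDA receptor subunits Grin2a, Grin2b and Grin3a, and the metabotropic receptor Grm5. In cortex no member was called, but no difference beyond that of Gria1 was called either. Grin3a read 116, 108 and 151 in stressed against 214, 210 and 265 in handled amygdala, and 66.7, 95.8 and 71.8 in stressed against 90.4, 76.6 and 72.9 in handled cortex. Its difference was -0.77 ± 0.25 (limma adjusted p = 0.411), and that of Gria4, another AMPA subunit, was -0.62 ± 0.23 (adjusted p = 0.480). On the other side of 0 the list reached 0.77, in a member that was not called.

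Genes of GABA synthesis, transport and reception had the lowest median of the 29 lists, -0.18, with 3 of 15 above 0 and no call. Gad2, a GABA-synthesizing enzyme, read 117, 234 and 280 in stressed against 325, 290 and 368 in handled amygdala, and 287, 243 and 274 in stressed against 227, 198 and 209 in handled cortex. Groups were apart in both regions and in opposite order, with the lowest value on the same stressed amygdala array that was lowest for Lsamp and Luzp2. The difference of -0.99 ± 0.26 was not called (limma adjusted p = 0.252). The receptor subunit Gabrg1 differed by -0.85 ± 0.27 (limma adjusted p = 0.406).

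Genes of striatal projection neurons, which also mark parts of the amygdala, lay on the other side. Their median difference was 0.39 with 20 of 21 above 0, and none was called for the difference. In amygdala 3 rose, against 0.187% of all probe sets and 36 of 14217 named genes: Ppp1r1b, whose product DARPP-32 inhibits a phosphatase downstream of dopamine, Penk, the opioid precursor proenkephalin, and Scn4b, a sodium channel subunit. In cortex none was called and the median change was 0.00. Scn4b read 154, 159 and 181 in stressed against 84.4, 64.1 and 83.0 in handled amygdala, and 136, 95.8 and 125 in stressed against 107, 105 and 102 in handled cortex. The amygdala groups were apart and the cortex groups overlapped, with a difference of 0.81 ± 0.17 (limma adjusted p = 0.117). For Ppp1r1b the difference was 0.57 ± 0.16 (limma adjusted p = 0.304). The list summed to 10103 to 10631 on stressed against 8654 to 9057 on handled amygdala arrays, and to 6236 to 6605 on stressed against 6092 to 6385 on handled cortex arrays, and the part of tissue makeup in the amygdala results was not tested.

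**Figure D3:**
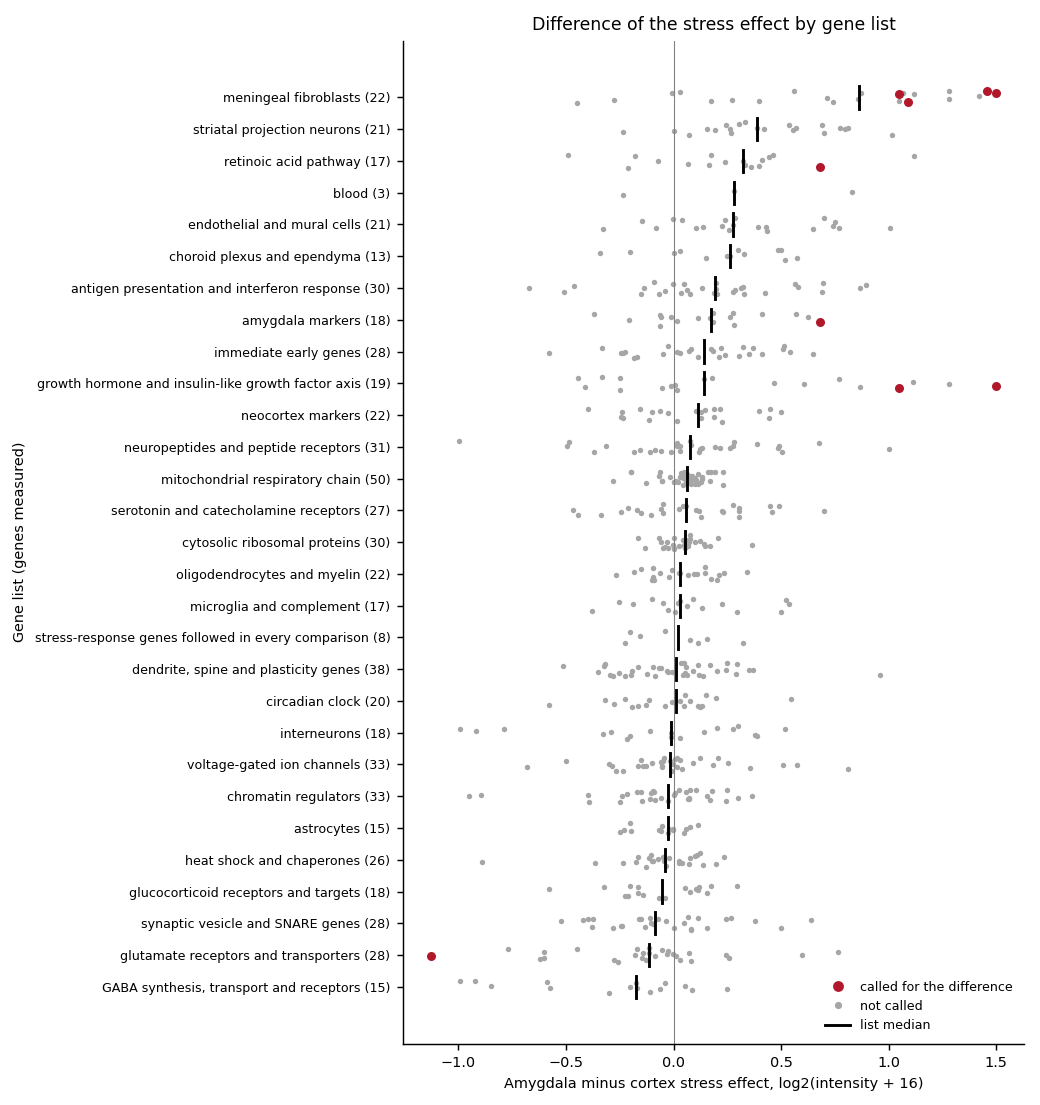
Amygdala minus cortex stress change, as a difference of log2(intensity + 16), for every measured gene of the 29 lists, 1 point per gene with called genes in red and list medians as bars. Medians run from -0.18 for the GABA list to 0.86 for the meningeal fibroblast list, and 5 lists hold a called gene.

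The corticosteroid receptors and the other stress-response genes that were followed did not differ by test. Of these 8, 4 had a difference above 0 and none was called. Nr3c1, the glucocorticoid receptor, had a difference of 0.08 ± 0.12 and Nr3c2, the mineralocorticoid receptor, -0.20 ± 0.10. The glucocorticoid targets Fkbp5 (0.16 ± 0.17), Sgk1 (0.11 ± 0.09) and Tsc22d3 (-0.04 ± 0.11) had intervals that include 0, as did the peptide hormone gene Crh (-0.16 ± 0.29) and the neurotrophin gene Bdnf (-0.22 ± 0.16). Fos, an immediate early gene, read 51.5, 51.5 and 54.2 in stressed against 90.4, 74.6 and 92.8 in handled amygdala, and 81.8, 65.5 and 68.0 in stressed against 158, 147 and 136 in handled cortex. Stressed arrays were lower in both regions without overlap, neither change was called, and the difference was 0.33 ± 0.26 (limma adjusted p = 0.814). Over 18 glucocorticoid receptor and target genes the median was -0.05, over 28 immediate early genes 0.14 and over 20 clock genes 0.01, and no member of the 3 lists was called for the difference.

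The remaining lists had medians of -0.08 to 0.18, around the 0.04 of all named genes. Those of oligodendrocytes (0.03), astrocytes (-0.02), microglia (0.03), interneurons (-0.01), voltage-gated ion channels (-0.02), dendrite and spine genes (0.01), heat shock genes (-0.04), chromatin regulators (-0.02), synaptic vesicle genes (-0.08), neuropeptides (0.08), serotonin and catecholamine receptors (0.06), ribosomal proteins (0.05), respiratory chain (0.06) and neocortex markers (0.12) held no gene called for the difference. Amygdala markers had a median of 0.18 with Cyp26b1 called, through its fall in cortex. In amygdala 2 of the 18 measured were called higher, against 0.187% of all probe sets. The list summed to 9127 to 9325 on stressed against 8415 to 8556 on handled amygdala arrays. In cortex it summed to 4827 to 4964 on stressed against 5009 to 5157 on handled arrays. The part of tissue makeup in these sums was not tested. Uncalled members of these lists include the vasopressin receptor gene Avpr1a (1.001 ± 0.41, limma adjusted p = 0.538), Nts, neurotensin (-0.996 ± 0.28, adjusted p = 0.321), the postsynaptic scaffold gene Homer3 (0.96 ± 0.25, adjusted p = 0.251) and the chromatin gene Setd5 (-0.95 ± 0.20, adjusted p = 0.101). Setd5 read 164, 196 and 143 in stressed against 367, 373 and 467 in handled amygdala, and 130, 192 and 163 in stressed against 214, 182 and 178 in handled cortex. It fell in amygdala by 1.19 (limma adjusted p = 9.50e-05).

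The same 15 probe sets can be described from the other side, as the amygdala minus cortex gap on stressed and on handled arrays. The gap was smaller in size on stressed than on handled arrays for 10 of 15 and larger for 5. It was called on the stressed arrays for 10 (10.1% of all probe sets) and on the handled arrays for 12 (7.82%). For Igf2 the gap was 0.08 ± 0.12 on stressed and -1.42 ± 0.12 on handled arrays, and for Ahi1 it was 0.11 ± 0.12 on stressed and 1.26 ± 0.12 on handled arrays. These 2 genes separated the regions on handled arrays and not on stressed ones. Cyp26b1 went the other way, with 2.07 ± 0.07 on stressed and 1.39 ± 0.07 on handled arrays. Ywhab had a gap of -0.61 ± 0.06 on stressed and an uncalled 0.17 ± 0.06 on handled arrays. The gaps use the same arrays as the difference and so restate it.

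**Figure D4:**
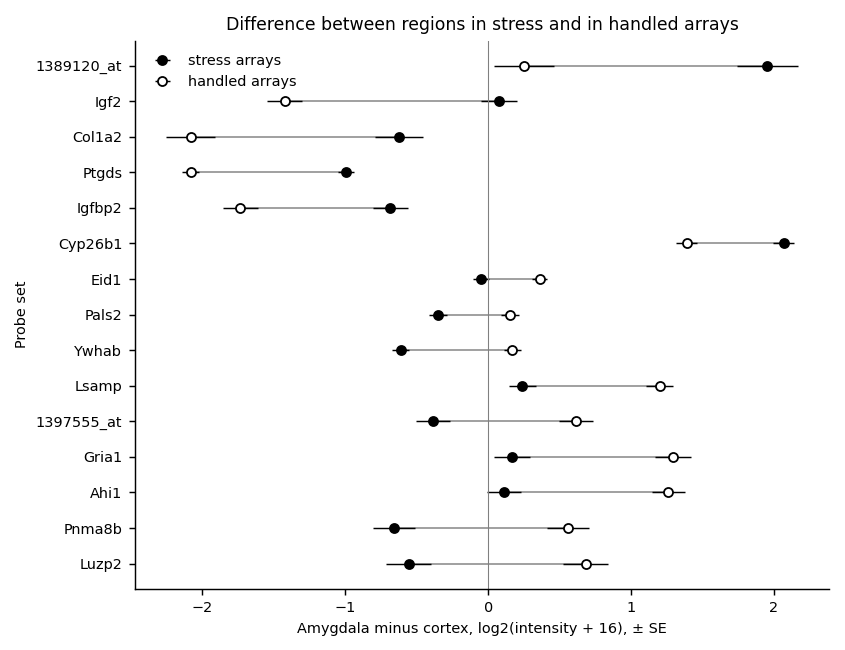
Amygdala minus cortex log2(intensity + 16) of the 15 called probe sets on stressed arrays (filled) and on handled arrays (open), with standard errors from the limma fit and a grey line joining the pair. Igf2, Lsamp, Gria1 and Ahi1 lie within 0.30 of 0 on stressed arrays and beyond 1 from 0 on handled arrays.

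The hippocampus arrays gave the stress change of the same probe sets in another region. They entered the calls for the difference through the estimate of the spread only. Of the 15, 2 were called there (0.18% of all probe sets were), both lower: Ptgds by -0.35 ± 0.06 (limma adjusted p = 0.00926) and Pnma8b by -0.73 ± 0.15 (adjusted p = 0.0433). Ptgds was 1214, 1181 and 1217 on stressed against 1624, 1446 and 1536 on handled hippocampus arrays. Both values lie between those of amygdala and cortex. The 9 probe sets with a lower change in amygdala than in cortex had a hippocampal change below 0 in all 9, with a median of -0.21, where 52.0% of all probe sets lay below 0. Of the 6 others 2 lay below 0, and their median was 0.06. For Igf2 (0.17 ± 0.12), Igfbp2 (0.21 ± 0.12) and Cyp26b1 (0.11 ± 0.07) the hippocampal change was above 0 and not called. Col1a2 changed by -0.60 ± 0.17, also not called (limma adjusted p = 0.197). It read 42.8, 32.1 and 26.1 on stressed against 61.4, 59.3 and 55.6 on handled hippocampus arrays, without overlap. The meningeal fibroblast list, Ptgds included, summed to 2244 to 2343 on stressed against 2652 to 2825 on handled hippocampus arrays.

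**Figure D5:**
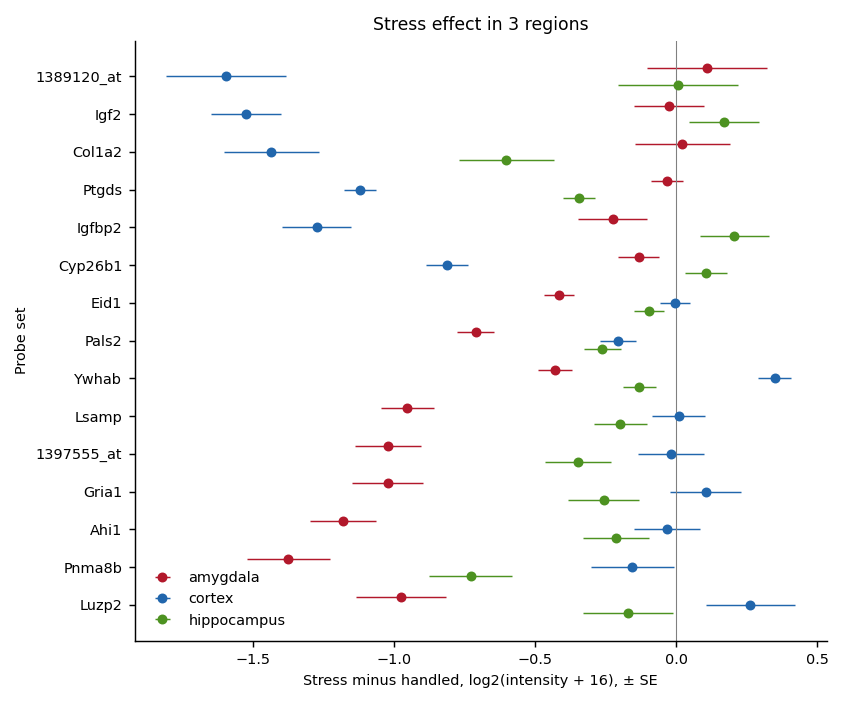
Stress minus handled change in log2(intensity + 16) with its standard error for the 15 called probe sets in amygdala, cortex and hippocampus. Hippocampus points lie between 0.21 for Igfbp2 and -0.73 for Pnma8b.

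Most probe sets called in a region were not called for the difference. Of the 356 called in amygdala 9 were, and 347 were not. Of the 48 called in cortex 7 were, and 41 were not. The amygdala-called probe sets had a median change of -0.57 in amygdala and -0.11 in cortex, and the cortex-called ones -0.15 in amygdala and -0.55 in cortex, medians that the choice by 1 region shifts. A missing call does not show equal change, because the 95% interval of the difference reached a median of 0.35 to either side of the estimate for the 347.

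Calls in both regions were made for 19 probe sets, 18 of them with the same sign, 15 lower and 3 higher. The exception is Ywhab. Named ones that rose in both are Cdc73, a subunit of the PAF1 complex of transcription elongation (0.58 ± 0.10 in amygdala, 0.66 ± 0.10 in cortex), and Zcchc7, a zinc knuckle RNA-binding protein gene. Those that fell in both include the transcription factor gene Mef2a, the cyclin gene Ccnd2, the postsynaptic scaffold gene Homer1, the lysophosphatidic acid receptor gene Lpar1 and the GABA-B receptor subunit gene Gabbr2. For Gabbr2 the change was -0.33 ± 0.07 in amygdala and -0.42 ± 0.07 in cortex, with a difference of 0.08 ± 0.10 (interval -0.12 to 0.29, limma adjusted p = 0.888). For Homer1 it was -0.37 ± 0.08 in amygdala and -0.40 ± 0.08 in cortex, with an interval of the difference of -0.20 to 0.26. These genes were chosen by their calls in both regions, after their values were seen, and over the 18 the differences ran from -0.25 to 0.43.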

How the data were processed

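Total RNA of rat amygdala and cortex was read on Affymetrix arrays, 1 per sample. The deposited values are linear intensities, 1 per probe set and array, which the authors had scaled: with 2% trimmed off either tail, the mean was 150.04 to 150.05 on every array, as computed from the files. The software that made them is not named in the sources used here, and a shift shared by most transcripts cannot be seen after such scaling. Of 31099 probe sets, 20826 had 1 gene symbol in the platform annotation and 57 controls were left out.

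Values were taken as log2(intensity + 16), which understates changes of dim probe sets. The 18 arrays entered 1 fit of 6 group means in limma 3.58.1 under R 4.3.3 (lmFit, eBayes with a variance trend, 12 residual and 8.91 prior degrees of freedom), two-sided, with Benjamini-Hochberg adjustment over 31042 probe sets. The fitting code was tested on simulated data. Alternatives changed the offset (1 or 64), filtered dim probe sets (40th or 60th percentile), centred medians, normalized by quantiles, dropped the variance trend, used fewer arrays, added a block or omitted an array.

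Named are called probe sets with 1 symbol, 8 followed stress genes and members of 29 gene lists (628 of 723 genes measured), each list gene read from its brightest probe set, with up to 3 uncalled members of largest difference per list. The comparison and the lists were chosen with earlier results of these data known. Other genes in the text were chosen after their values were seen. Detection calls were not used here.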

Additional observations from a re-analysis of the deposited data

Results flagged for a closer look

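The stress change differed between amygdala and cortex by the limma test of the difference itself for 15 probe sets, and each is listed here with its log2 difference, amygdala change minus cortex change. Above 0 were 1389120_at (1.70), Igf2 (1.50), Col1a2 (1.46), Ptgds (1.09), Igfbp2 (1.05) and Cyp26b1 (0.68), for which the stressed cortex was lower than the handled cortex. Below 0 were Luzp2 (-1.24), Pnma8b (-1.22), Ahi1 (-1.15), Gria1 (-1.13), 1397555_at (-1.002), Lsamp (-0.96), Ywhab (-0.78), Pals2 (-0.50) and Eid1 (-0.41), for which the stressed amygdala was lower than the handled amygdala. Ywhab also rose in the stressed cortex, on 1 of its 2 probe sets. The hexokinase 3′ minus 5′ difference on amygdala arrays moved with treatment beside these genes. Summed intensities of meningeal fibroblast genes on cortex arrays also moved, but that sum holds Ptgds, Igf2, Igfbp2 and Col1a2 themselves. The part of RNA quality and of meninges in the values was not tested. The GAPDH and beta-actin 3′ minus 5′ differences overlapped between stressed and handled amygdala arrays.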

How the results depend on the processing

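The 15 calls for the difference became 24 with the dimmest probe sets filtered out at the 40th percentile and 24 at the 60th, and 5 without the variance trend. Leaving out 1 array at a time gave 5 to 22. It gave fewer than 10 in 8 of 12 omissions: 8 without stressed amygdala array 1, 9 without handled amygdala array 3, 7, 6 and 8 without stressed cortex arrays 1, 2 and 3, and 6, 9 and 5 without handled cortex arrays 1, 2 and 3. The 356 amygdala calls became 138 without the trend and 83 with only the 6 amygdala arrays, and 120 to 403 over omissions, with 120, 226 and 237 without handled amygdala arrays 3 and 2 and stressed amygdala array 2. The 48 cortex calls became 25 without the trend and 220 with only the 6 cortex arrays, and 24 to 96 over omissions, with 96 without stressed amygdala array 1 and 24 to 27 without any 1 of the 6 cortex arrays. The cause of these shifts was not tested. With the replicate number as a block, the replicate block fit called 13 for the difference, 348 in amygdala and 45 in cortex. Same-numbered arrays did not deviate together (correlations of -0.0441 to 0.0281, against -0.0512 to 0.0397 for arrays of different number). Such correlations cannot settle whether same-numbered amygdala and cortex samples came from 1 rat, because technical spread can hide it. The labels do not say. Signs turned under omissions only for uncalled genes: Tsc22d3 ran from -0.137 to 0.036 (the highest without stressed amygdala array 3, 0.0056 without handled amygdala array 2, 0.0057 without handled cortex array 2), Crh from -0.29 to 0.043, Fkbp5 from -0.0050 to 0.25 and Rpl39 from -0.00269 to 0.35. The meningeal fibroblast median ranged from 0.56 to 1.18. Of 29 list medians 17 kept their sign in all 20 settings. With 3 arrays a group, the 95% interval of the difference reached a median of 0.41 to either side among brighter probe sets, which limits what could be called.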

Other observations

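A further 25 probe sets were called for the difference only when other settings were used, among them those of Col3a1, Gh1 and Ogn described above. Of the others, Map2, which encodes a microtubule-associated protein of dendrites, was called in 6 of 21 settings, with a difference of -0.76 (limma adjusted p = 0.0690 over all probe sets). Gria3, an AMPA receptor subunit like Gria1, had -0.80 (limma adjusted p = 0.0899) and was called in 2 settings, both filters on dim probe sets. The same filters called Hpcal4, a neuronal calcium sensor (-0.93, limma adjusted p = 0.0709), and Eif3c, a translation initiation factor subunit (-1.01, adjusted p = 0.0911).

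Gh1, called higher in stressed amygdala, was called lower in stressed hippocampus, by -1.09 ± 0.18 (limma adjusted p = 0.00749). Prl, prolactin, read 68.1, 66.3 and 83.5 in stressed against 28.2, 5.09 and 41.9 in handled amygdala, and 18.9, 9.56 and 11.1 in stressed against 3.16, 3.03 and 15.4 in handled cortex. The amygdala groups did not overlap, the cortex groups did, and the difference of 0.87 ± 0.50 was not called (limma adjusted p = 0.707). Htr2c, a serotonin receptor, rose in cortex (0.56, limma adjusted p = 0.00761) with an uncalled 0.22 in amygdala, and its difference of -0.34 ± 0.13 was not called (adjusted p = 0.508). These genes were chosen after their values were seen.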
